A study of Mus musculus with 2 samples.

Results

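Mitochondrial ribosomal proteins build the ribosome that works inside mitochondria. Its members here were the genes whose symbol in the array's probe annotation is Mrpl or Mrps followed by a number, which gave 74 genes on 75 probes, of 16390 named genes in all. Of these, 46 carried Mrpl and 28 carried Mrps symbols, and Mrps30 was the member with 2 probes. The members lie on 17 chromosomes. The rule uses the symbol and no measured value, although the family was picked with earlier results of these data known.

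The mitochondrial ribosome translates the few proteins encoded in mitochondrial DNA, which are core subunits of the respiratory chain and of ATP synthase. Its RNAs come from mitochondrial DNA, while all its proteins are encoded in the nucleus, made in the cytosol and imported. Many have a bacterial counterpart and others are particular to mitochondria. Proteins named Mrps30 and Mrps18a sit in the large subunit despite their names, so 48 members belong to the large subunit and 26 to the small subunit.

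In all, 3 sorted populations of mouse small intestinal epithelium were compared on 2 arrays, each with 2 colours. All cells came from mice that carried Atoh1-crePGR, Lgr5-EGFP-IRES-creERT2 and Rosa26-tdTomato, and all mice received RU486 on 5 consecutive days, which activates the CrePGR recombinase expressed from Atoh1, a gene of the secretory lineage, and so turns on tdTomato permanently in those cells and their progeny. The sort was made 20 days later on cells pooled from 4 mice, and gave EGFP+ve/tdTomato-ve cells (EGFP only), EGFP+ve/tdTomato+ve cells (double positive) and EGFP-ve/tdTomato+ve cells (tdTomato only). EGFP reports the stem cell gene Lgr5, and EGFP-only cells are Lgr5 cells with no recorded Atoh1 history, which includes any cell in which recombination did not occur. On both arrays Cy5 labelled the EGFP-only RNA, the double-positive RNA carried Cy3 on the first array and the tdTomato-only RNA carried Cy3 on the second. The ages of the mice were not given in the labels. Each population is 1 pooled replicate and no dye swap was made, so no value below has a replicate error or a test, and a dye effect of a single probe cannot be told apart from a difference between populations.

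The populations differed in their cell markers. Lgr5 was 1.20-fold higher in double-positive and 1.85-fold lower in tdTomato-only than in EGFP-only cells, and Olfm4, another stem cell marker, was 2.94-fold and 5.17-fold lower. Of 11 stem cell markers, 8 lay below 0 in double-positive and 11 in tdTomato-only cells, so Lgr5 differed from most of its list in the former. Of 9 measured Paneth cell markers, all 9 passed 2-fold higher in double-positive and 8 in tdTomato-only cells, and their summed normalized intensity went from 36475 to 655841 on the first array and from 39553 to 545823 on the second. Goblet cell markers (sums of 37388 and 242659, then 31923 and 430212) and enterocyte markers (8571 and 45186, then 9234 and 77485) had higher sums too, with 9 and 10 of 11 goblet and 9 and 9 of 11 enterocyte markers past 2-fold higher. The goblet gene Muc2 stood at −0.40 and 0.16. Ang4, Defa5, Pla2g2a and Itln1 of the Paneth list and the goblet gene Spink4 were saturated in both Cy3 channels. Their ratios and the sums that hold them are thus limited by the range of the scanner. All 11 measured lymphocyte markers were past 2-fold higher in double-positive cells, with sums of 1922 and 17067, and 7 of 11 in the tdTomato-only cells, with sums of 1931 and 7396, while Cd3e was not above background in any channel. Myeloid markers had sums of 1087 and 2347, then 1075 and 1849, and 3 of 8 and 1 of 7 were at least 2-fold higher. Fibroblast, muscle and endothelial markers had sums of 748 and 812, then 738 and 756, and none of 7 was past 1.5-fold on either array. The part of cell composition in the values below was not tested, and fewer cells of a type and less RNA per cell cannot be told apart here.

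The promoters of 65 members were in the RefSeq tables of assembly GRCm38.p6. They were searched for 3 motifs of transcription factors known for nuclear genes of mitochondria, in the 250 bases before and 50 after the annotated start and on both strands. These were the core motif of NRF1, the ETS core CCGGAAG, which GABPA binds, and the YY1 core AAGATGGC. At least 1 of them was present in 39 of the 65 promoters (60.0%), against 26.9% of 9877 promoters of genes above background on both arrays and 15.2% of 27025 promoters of all genes. The NRF1 core motif was in 18.5% of member promoters (9.47% and 4.78%), the ETS core in 35.4% (16.3% and 9.12%) and the YY1 core in 16.9% (4.4% and 2.88%). Of the 65 promoters, 4 are shown. They belong to 3 of the members lowest in both tdTomato-positive populations, Mrpl9, Mrpl45 and Mrps22, and to the highest member, Mrpl53. Each of the 4 holds a match, but not every low member has one, as the promoter of Mrps2 held none of the 3 motifs. Capitals mark the motif matches. The Mrpl9 promoter (chr3:94443086-94443385, plus strand) holds 1 NRF1 match, which reads the same on both strands. The Mrpl45 promoter (chr11:97315466-97315765, plus strand) holds 3 NRF1 matches, the last of them on the opposite strand. The Mrps22 promoter (chr9:98601630-98601929, minus strand) holds 1 ETS match, and the Mrpl53 promoter (chr6:83108858-83109157, plus strand) holds 2, the second on the opposite strand. A match is a description of these letters and not a measured site.
Mrpl9: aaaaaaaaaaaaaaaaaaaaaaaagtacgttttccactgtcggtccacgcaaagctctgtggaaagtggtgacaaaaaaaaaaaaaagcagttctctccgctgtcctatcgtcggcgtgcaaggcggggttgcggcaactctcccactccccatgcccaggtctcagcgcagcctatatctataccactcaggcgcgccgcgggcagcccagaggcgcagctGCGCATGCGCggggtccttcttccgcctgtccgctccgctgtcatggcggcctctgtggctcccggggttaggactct
Mrpl45: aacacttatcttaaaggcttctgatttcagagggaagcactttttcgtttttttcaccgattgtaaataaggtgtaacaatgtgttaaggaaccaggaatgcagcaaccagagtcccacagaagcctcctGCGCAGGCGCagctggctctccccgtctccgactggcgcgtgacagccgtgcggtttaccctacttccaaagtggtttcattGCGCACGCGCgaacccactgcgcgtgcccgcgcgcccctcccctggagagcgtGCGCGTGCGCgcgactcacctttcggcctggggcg
Mrps22: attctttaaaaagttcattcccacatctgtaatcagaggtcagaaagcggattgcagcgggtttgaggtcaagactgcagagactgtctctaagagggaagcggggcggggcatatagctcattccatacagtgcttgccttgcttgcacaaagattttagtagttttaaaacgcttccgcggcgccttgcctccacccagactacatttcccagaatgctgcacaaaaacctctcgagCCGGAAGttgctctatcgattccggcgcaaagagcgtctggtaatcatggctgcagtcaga
Mrpl53: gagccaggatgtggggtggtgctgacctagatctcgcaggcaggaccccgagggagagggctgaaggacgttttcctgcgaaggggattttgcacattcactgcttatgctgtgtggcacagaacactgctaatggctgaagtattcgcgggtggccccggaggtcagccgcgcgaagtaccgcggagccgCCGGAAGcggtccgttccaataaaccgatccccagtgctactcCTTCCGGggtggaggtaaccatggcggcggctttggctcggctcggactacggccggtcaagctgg

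Nearly all members gave a readable signal. The limit of background was the mean of the blank spots plus 2 SD. By this limit all 75 member probes were above background in both EGFP-only channels and in the double-positive channel, and 74 in the tdTomato-only channel, against 73.1% to 86.3% of all 23474 probes. The median intensity of member probes was 1314 and 1276 in the EGFP-only channels, 718 in the double-positive and 728 in the tdTomato-only channel, while all probes had medians from 98.2 to 108. No member was saturated. The dimmest member was Mrpl41, a protein of the large subunit particular to mitochondria, with 74.7 and 74.6 in the EGFP-only channels, 81.1 in double-positive and 80.8 in tdTomato-only cells. It was not well above background in the last of these, and it has no ratio in comparisons that use that channel. Mrpl33 and Mrpl35, both of the large subunit with bacterial counterparts, stayed below 100 in all 4 channels, close to that limit.

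Before normalization, members leaned toward the EGFP-only population on both arrays, as the plot of ratios against brightness shows. Their median log2 ratio of unnormalized spot intensities was −0.84 on the first and −0.72 on the second array, while over all genes above background it was −0.10 and −0.02. Brightness moved with this value, in a split made after the values were seen. Genes other than members with an EGFP-only intensity of 500 or more had medians of −0.66 and −0.59 before normalization, and dimmer genes 0.01 and 0.08. Of the members, 61 were at or above 500, with medians of −0.86 and −0.74. The ratios below were normalized by loess, which sets each probe against others of similar brightness, and are given on the log2 scale after an offset that shrinks the ratios of dim probes. After it the bright members had medians of −0.24 and −0.23, and the other bright genes −0.05 and −0.08.

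**Figure D1:**
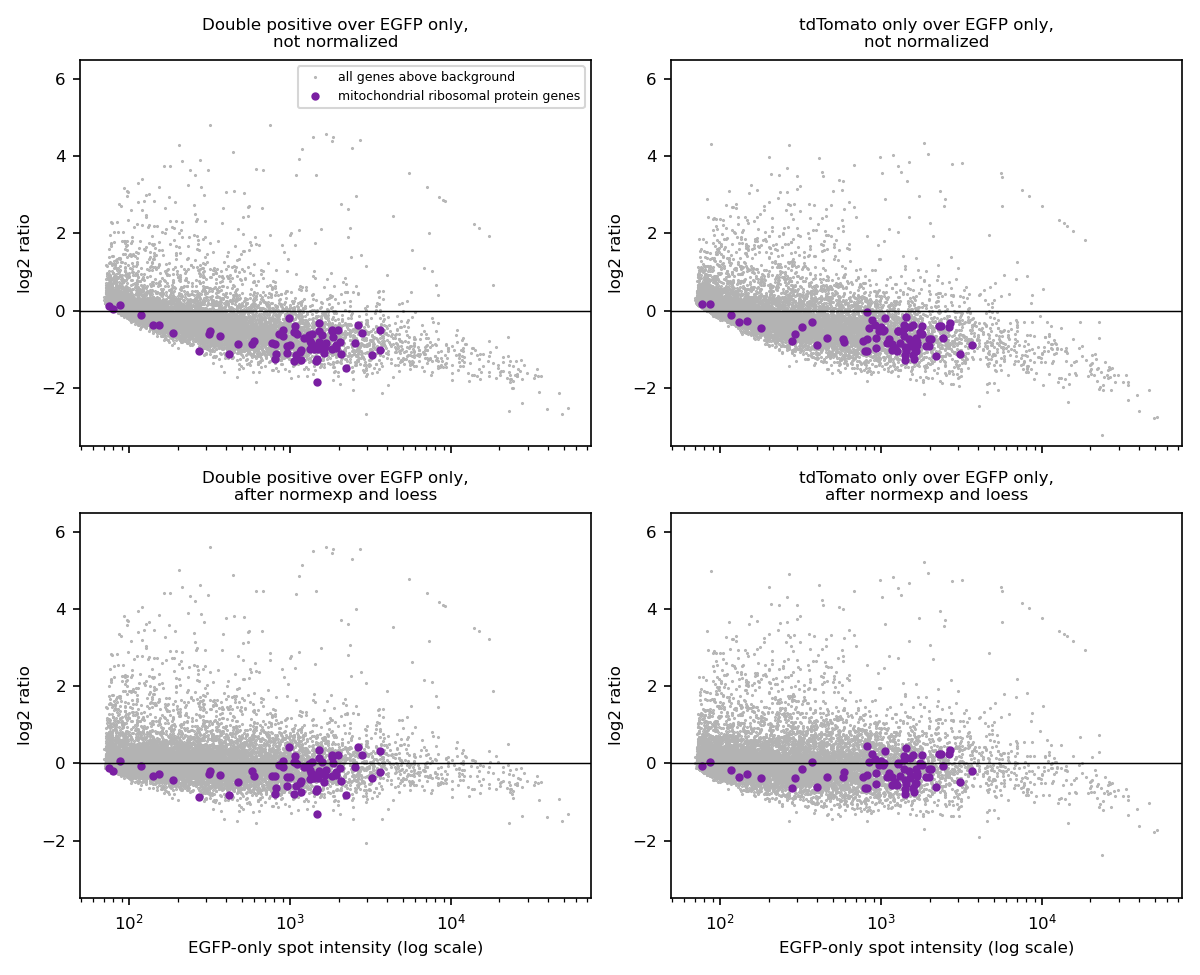
The log2 ratio of each gene above background (grey) and of the mitochondrial ribosomal protein genes (purple) is plotted against its EGFP-only spot intensity on a log axis, for each array (columns), before (top) and after (bottom) normexp correction and loess. Members sit mostly among the bright genes and mostly below 0, with medians of −0.84 and −0.72 before and −0.27 and −0.25 after normalization.

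The first comparison set EGFP-positive cells with a recorded Atoh1 history against those with none recorded. Most mitochondrial ribosomal protein genes were slightly lower in the double-positive population. Of 74 measured genes, 57 lay below 0 (77.0%, with 51.3% of all 12426 genes below 0), and the median log2 ratio was −0.27, or 1.21-fold lower, while the median of all genes was −0.01. At least 1.5-fold lower were 12 members (16.2%), against 3.9% of all genes, and none was 1.5-fold higher, where all genes had 10.3%. Of these, only Mrpl9 was past 2-fold lower, a call that 0.322% of all genes had, and no member was among the 4.88% that were at least 2-fold higher. These shares depended on the correction. Of the genes other than members, 9430 had an EGFP-only intensity below 500 and 2922 did not, while 61 of the members were at or above it. The offset shrinks the ratios of dim genes, so the shares of all genes are not matched to members in brightness. Shares among bright genes alone were not counted. With the blank mean subtracted 23.0% of members and 14.7% of all genes were at least 1.5-fold lower, and with an offset of 0 they were 23.0% and 11.4%. Members past 2-fold lower then numbered 5 (514 of all genes) and 4 (238), and they numbered 7 by the authors' own ratios (435) and 10 after median centring (383).

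Mrpl9, a large subunit protein with a bacterial counterpart, was the lowest member. Its spot intensity was 1469 in EGFP-only and 406 in double-positive cells on the first array, and 1405 and 582 in EGFP-only and tdTomato-only cells on the second. The Cy3 values were lower than the Cy5 values, as they were for 71 of 74 and 71 of 73 members before normalization, so the normalized ratio and not this gap sets Mrpl9 apart from other genes of its brightness. The log2 ratio was −1.32, or 2.50-fold lower, in double-positive cells and −0.78, or 1.72-fold lower, in tdTomato-only cells. In the authors' deposited ratios these values were −1.61 and −1.11.

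Mrps2, the small subunit protein with a bacterial counterpart of the same number, came next, with intensities of 271 and 131 on the first array and 279 and 161 on the second. Its log2 ratios were −0.88 and −0.62. Mrps27, a pentatricopeptide repeat protein of the small subunit particular to mitochondria, had intensities of 420 and 191, then 402 and 216. The EGFP-only intensities of both genes were close between arrays, and the log2 ratios of Mrps27 were −0.82 and −0.62. Mrpl18, a protein of the central protuberance of the large subunit, had intensities of 2212 and 795, then 2204 and 977, and log2 ratios of −0.82 and −0.60. Mrps22, a small subunit protein particular to mitochondria, had intensities of 803 and 336, then 797 and 383, and log2 ratios of −0.79 and −0.65. The EGFP-only values of these 2 genes were close on both arrays, too.

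Mrpl45, which lies near the exit of the tunnel and helps to anchor the ribosome at the inner membrane, was lower in both populations despite a large difference between arrays. Its intensities were 1055 in EGFP-only and 426 in double-positive cells on the first array, and 1610 and 675 in EGFP-only and tdTomato-only cells on the second. Both channels of the second array were brighter than those of the first, and the log2 ratios within each array were −0.78 and −0.74. The other members at least 1.5-fold lower in double-positive cells were Mrpl49 (−0.73), Mrpl34 (−0.73), Mrpl21 (−0.70), Mrpl38 (−0.65), Mrps9 (−0.63) and Mrpl46 (−0.59). Of these, Mrpl38 and Mrpl46 belong to the central protuberance, Mrpl34, Mrpl21 and Mrps9 have bacterial counterparts, and Mrpl49 is particular to mitochondria.

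At the other end stood Mrpl53, a large subunit protein particular to mitochondria, with intensities of 981 and 862 on the first array and 818 and 791 on the second. Unlike most members it had nearly equal intensities in both channels of each array, and its log2 ratios were 0.43 and 0.45. Mrpl52 of the central protuberance followed with 0.41 and 0.36, Mrps15 of the small subunit with 0.35 and 0.41, and Mrps24, the counterpart of a bacterial small subunit protein, with 0.32 and 0.24. Mrpl20 (0.21), Mrpl30 (0.21) and Mrpl36 (0.21), all with bacterial counterparts, and Mrpl54 (0.20) completed the 8 highest in double-positive cells. Only Mrpl53 of the 4 highest kept its sign in both comparisons under every scaling. In the deposited ratios Mrpl52 stood at 0.10 and −0.03 and Mrps24 at −0.05 and −0.11, and with median centring Mrps15 stood at −0.13 and −0.04. The deposited ratios of Mrpl20 (−0.06), Mrpl30 (−0.11) and Mrpl36 (−0.04) in double-positive cells lay below 0 as well.

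**Figure D2:**
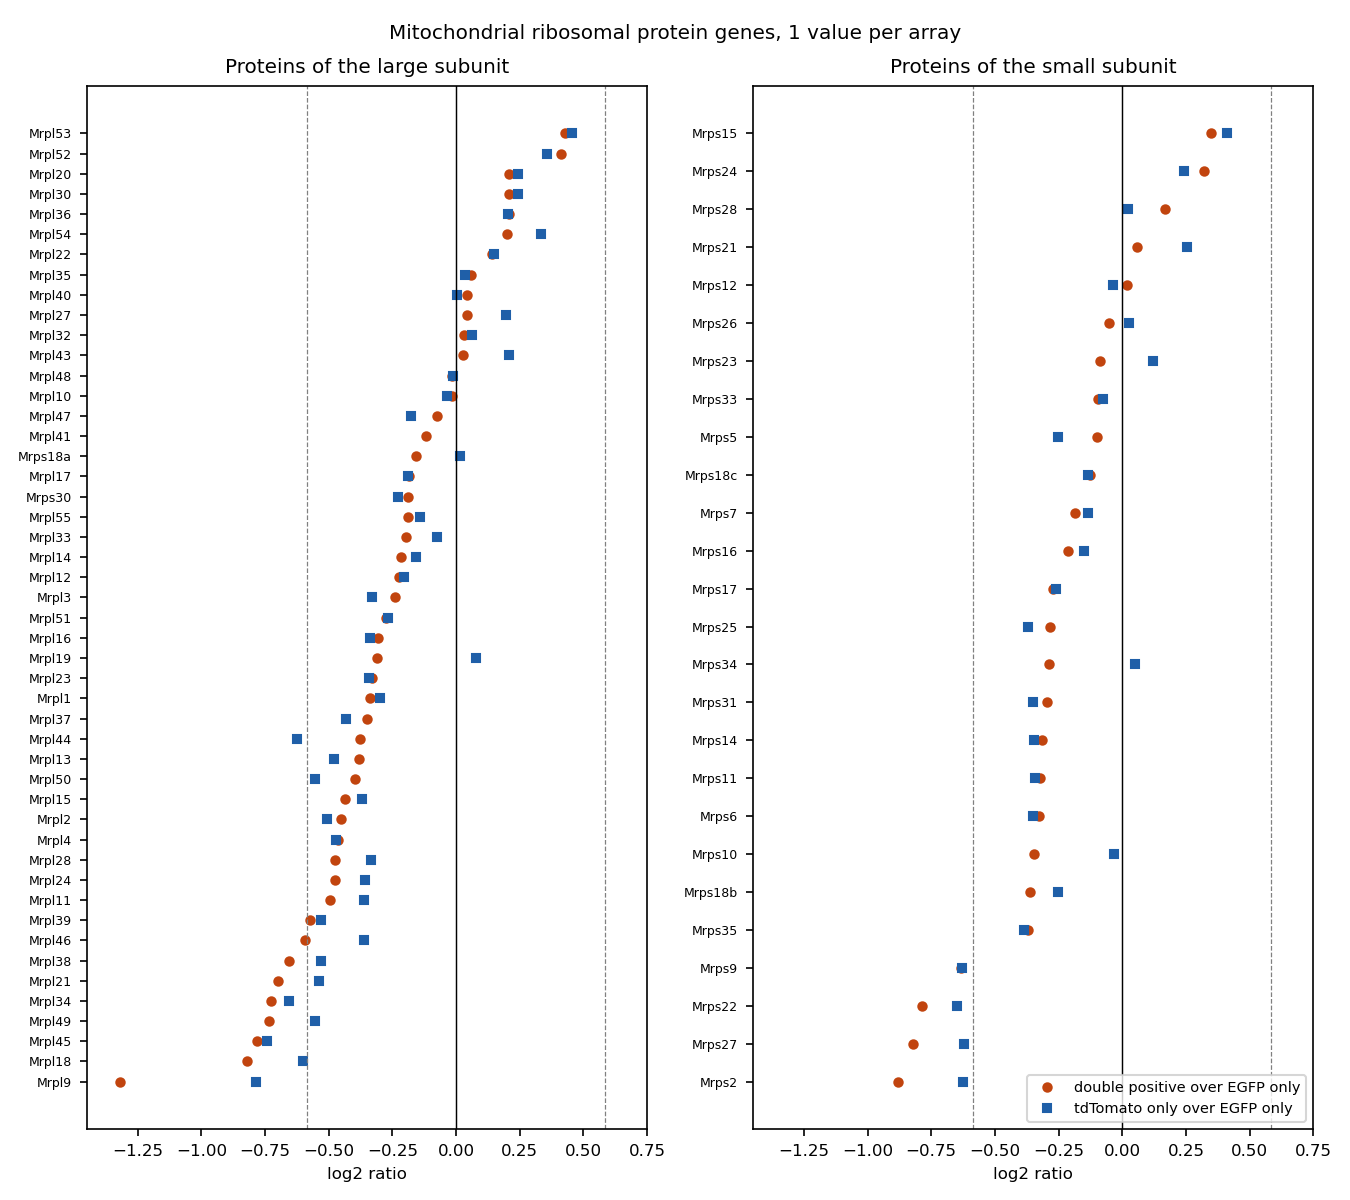
The log2 ratio of each member is plotted for the double-positive (circles) and the tdTomato-only population (squares) over the EGFP-only population, with large subunit proteins on the left and small subunit proteins on the right, ordered by the first comparison, and with 1 value per array and no error bars. Dashed lines mark 1.5-fold. Mrpl9 is lowest at −1.32 and −0.78, Mrpl53 highest at 0.43 and 0.45, and no member passes 1.5-fold above 0.

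The second comparison asked how tdTomato-only cells, which are labelled Atoh1-expressing cells or their progeny, differ from the EGFP-only cells. Of 73 measured members, 52 lay below 0 (71.2%, with 52.5% of all 12489 genes), and the median log2 ratio was −0.25, or 1.19-fold lower, while that of all genes was −0.02. At least 1.5-fold lower were 9 members (12.3%), against 6.08% of all genes, which were mostly dimmer here too. None was 1.5-fold higher, where all genes had 11.5%, and none was past 2-fold, where all genes had 1.08% lower and 5.68% higher. In the deposited ratios 3 members (864 of all genes), and with median centring 5 (573), were at least 2-fold lower. These member counts are too small to set against that background. The 1.5-fold share depended on the background correction. With the blank mean subtracted in place of normexp it was 19.2% of members and 18.6% of all genes, and with an offset of 0 it was 11 of 73 members and 1877 of 12489 genes, so that the members' share was near the background in both, while 72.6% and 71.2% of members still lay below 0.

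Mrpl9 (−0.78) and Mrpl45 (−0.74) were lowest here too, followed by Mrpl34 (−0.66), Mrps22 (−0.65), Mrps9 (−0.63), Mrpl44 (−0.63), Mrps2 (−0.62), Mrps27 (−0.62) and Mrpl18 (−0.60). Mrpl44, a large subunit protein related to the ribonuclease III family, had intensities of 1417 and 713 on the first array and 1588 and 718 on the second, and stood at −0.38 in double-positive cells. The 8 highest were Mrpl53 (0.45), Mrps15 (0.41), Mrpl52 (0.36), Mrpl54 (0.33), Mrps21 (0.26), Mrpl30 (0.24), Mrps24 (0.24) and Mrpl20 (0.24). The deposited ratios of Mrpl30 (−0.13) and Mrpl20 (−0.12) lay below 0. Both comparisons share the EGFP-only population, so their values are given side by side and their likeness is not a result.

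Members of both subunits and of both origins were spread over a similar range. In double-positive cells the median was −0.26 over 48 large subunit genes, 8 of them at least 1.5-fold lower, and −0.28 over 26 small subunit genes, 4 of them at least 1.5-fold lower. In tdTomato-only cells these medians were −0.27 over 47 and −0.20 over 26 genes. Genes whose protein has a bacterial counterpart had medians of −0.23 and −0.20 over 48 genes, and those particular to mitochondria −0.29 over 26 and −0.35 over 25. The ranges overlapped almost completely, and the difference between these groups was not tested.

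Among groups of neighbouring proteins, those of the central protuberance and the exit tunnel held members on both sides of 0 in both comparisons with EGFP-only cells. Those of the stalk and the peptidyl transferase centre lay below 0 in both. Of the 8 central protuberance genes, Mrpl18, Mrpl38 and Mrpl46 were at least 1.5-fold lower in double-positive cells, whereas Mrpl52 (0.41), Mrpl27 (0.04) and Mrpl40 (0.04) lay above 0, and the median was −0.10. In the deposited ratios Mrpl27 (−0.17) and Mrpl40 (−0.14) lay below 0. The stalk genes, whose proteins recruit translation factors, were Mrpl11 (−0.50 and −0.36 in the 2 comparisons), Mrpl12 (−0.22 and −0.20) and Mrpl10 (−0.02 and −0.04). Around the exit tunnel, Mrpl45, Mrpl24 (−0.47 and −0.36), Mrpl4 (−0.46 and −0.47) and Mrpl23 (−0.33 and −0.34) lay below 0 and Mrpl22 (0.14 and 0.15) above it, although its deposited ratios were −0.09 and −0.15. Both members near the peptidyl transferase centre, Mrpl2 (−0.45 and −0.51) and Mrpl3 (−0.24 and −0.33), lay below 0. Mrps12, a protein of the decoding site, stood at 0.02 and −0.04. These groupings were made after the values were seen, and differences between them were not tested. The 2 probes of Mrps30 disagreed, with −0.43 and −0.49 on the brighter one and 0.05 and 0.03 on the dimmer one, whose intensities were 106 to 113, and their means entered the counts.

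The third comparison set the tdTomato-only against the double-positive population through the difference between the arrays' ratios, so that the shared reference and any dye effect common to both arrays cancel. Mitochondrial ribosomal protein genes differed little between these populations. The median log2 ratio over 73 members was 0.03 (all genes −0.02), 63 members lay within 0.2 of 0, and none was past 1.5-fold in either direction, where 1.72% of all 12242 genes were lower and 2.51% higher, or past 2-fold, where 0.27% were lower and 0.752% higher. With the blank mean subtracted or an offset of 0, Mrpl9 (0.60 in both) and Mrpl33 (1.23 and 0.69) were past 1.5-fold higher. Below 0 lay 28 members (38.4%), against 54.8% of all genes, but in the deposited ratios these shares were 61.6% and 58.7%, so the direction of this contrast depended on the scaling. The SD over members was 0.13, compared with 0.33 and 0.30 in the comparisons with EGFP-only cells. Over all genes it was 0.29, compared with 0.56 and 0.59, so the smaller spread was not particular to members.

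Mrpl9 was the highest member at 0.54, or 1.45-fold higher in tdTomato-only cells, followed by Mrpl19 (0.39), Mrps34 (0.34), Mrps10 (0.31), Mrps2 (0.26), Mrpl46 (0.23), Mrpl18 (0.22) and Mrps23 (0.21). Mrpl19, a large subunit protein with a bacterial counterpart, had intensities of 1415 and 744 on the first array and 1386 and 1001 on the second. The tdTomato-only value was thus the higher of the 2 Cy3 values while the EGFP-only values were close. The lowest were Mrpl44 (−0.25), Mrpl50 (−0.16), Mrps5 (−0.15), Mrps28 (−0.15), Mrpl47 (−0.10), Mrpl13 (−0.10), Mrpl3 (−0.09) and Mrps25 (−0.09), of which Mrpl3 lies near the peptidyl transferase centre. Mrpl33 reached 1.27 in the deposited ratios but 0.12 here, with intensities of 79.6 and 81.6, then 76.8 and 86.0, close to the limit of background.

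The EGFP-only channel, measured on both arrays, describes the technical spread. The labels do not say whether both arrays used the same labelled RNA. Over 75 member probes its difference between arrays had an SD of 0.12 on the log2 scale, and over all 16884 probes above background 0.081. Of the member probes, 65 lay within 0.1 of 0. Mrpl45 was 0.62 higher on the second array and Mrps24 0.60 higher on the first, and without these 2 the SD was 0.077. Mrps24 had intensities of 3596 and 2519 on the first array and 2283 and 1739 on the second, so both colours were brighter on the first, and its value in the third comparison was −0.08. The ratios of Mrpl9, Mrpl18, Mrps2, Mrps22 and Mrps27 in both comparisons with EGFP-only cells were several times this spread, whereas most values of the third comparison were not clear of it. These genes were named for being among the lowest members. The spread is that of 1 channel between arrays and not the error of a ratio within an array, so setting ratios against it is no test. This spread covers neither a new sort nor a dye effect.

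**Figure D3:**
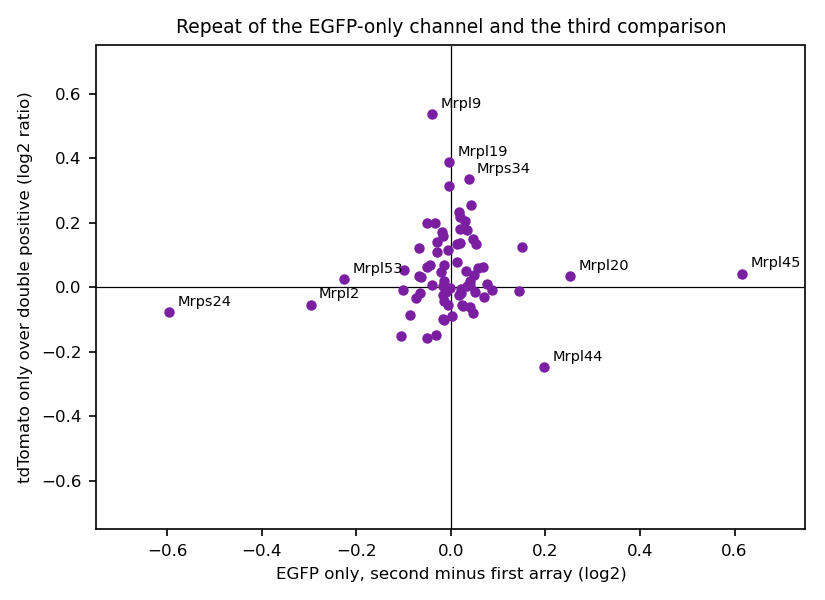
Each point is 1 member probe, with the log2 difference of its EGFP-only signal between the second and first arrays on the horizontal axis and its log2 ratio of tdTomato-only over double-positive cells on the vertical axis, and with no error bars. Mrpl45 (0.62) and Mrps24 (−0.60) lie far out on the horizontal axis and near 0 on the vertical axis, and Mrpl9 (0.54) lies highest.

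Mitoribosomal proteins without an Mrpl or Mrps symbol in the annotation gave a wider picture. Ptcd3, a small subunit protein with pentatricopeptide repeats, stood at −0.47 in double-positive and −0.68 in tdTomato-only cells, Chchd1 at −0.21 and −0.19, and Gadd45gip1 at 0.06 and 0.11. With updated symbols 3 further genes would join the list, namely Mrpl42 (−0.14 and −0.26), Mrpl57 (−0.21 and −0.19) and Mrpl58. Mrpl58, listed as Ict1, encodes a peptidyl-tRNA hydrolase built into the large subunit. It lay outside the range of the members in both comparisons that use the double-positive channel, but inside it in tdTomato-only over EGFP-only cells. Its intensities were 748 in EGFP-only and 1190 in double-positive cells on the first array, and 736 and 622 in EGFP-only and tdTomato-only cells on the second. The double-positive value was the highest of the 4. It was 2.47-fold higher in double-positive than in EGFP-only cells (log2 ratio 1.30), 1.17-fold higher in tdTomato-only cells (0.23), and 2.11-fold lower in tdTomato-only than in double-positive cells (−1.08), and the authors' deposited ratios gave 1.19, 0.01 and −1.18.

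Genes that serve the mitochondrial ribosome also lay mostly below 0. Over all genes, 51.3% lay below 0 and 3.9% were at least 1.5-fold lower in double-positive cells, and 52.5% and 6.08% in tdTomato-only cells, which is the background for the counts that follow. Of 15 measured mitochondrial translation factors, 13 lay below 0 in each comparison with EGFP-only cells, with medians of −0.26 and −0.34, and 1 and 2 were at least 1.5-fold lower, counts too small to set against that background. Tsfm, an elongation factor, was lowest, with intensities of 1123 and 427, then 1116 and 463, and log2 ratios of −0.87 and −0.82. Mtif2, an initiation factor, and Oxa1l, the insertase that receives the newly made proteins, stood at −0.52 and −0.44 in double-positive cells. Mtif3, another initiation factor, lay above 0, at 0.25 in double-positive and 0.38 in tdTomato-only cells. Lrpprc, which stabilizes mitochondrial mRNA, stood at −0.73 and Pnpt1, an RNA-processing enzyme, at −0.53 in tdTomato-only cells.

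Ribosome assembly and rRNA modification genes had medians of −0.29 and −0.23 over 22 genes, with 18 and 17 below 0 and 1 and 3 at least 1.5-fold lower, the first of which is near the background. Fastkd2, an RNA-binding protein needed for the large subunit, was 1.88-fold lower in double-positive (−0.91) and 2.00-fold lower in tdTomato-only cells. The rRNA methyltransferase gene Mrm3 (−0.58 and −0.60), Mterf3 (−0.52 in double-positive cells) and the GTPase gene Noa1 (−0.71 in tdTomato-only cells) followed. Mitochondrial aminoacyl-tRNA synthetases, listed with the amidotransferase genes Qrsl1, Gatb and Gatc, had medians of −0.32 and −0.36 over 20 genes. Of these 20, 18 lay below 0 in each comparison, and 2 and 4 were at least 1.5-fold lower. Fars2 stood at −0.98 and −0.67, Tars2 and Nars2 at −0.62 and −0.56 in double-positive cells, and Yars2 and Lars2 at −0.72 and −0.65 in tdTomato-only cells.

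Genes of mitochondrial DNA maintenance and transcription had medians of −0.30 and −0.37 over 12 genes, with 11 below 0 in each comparison. Tfb2m, which helps the mitochondrial RNA polymerase to start transcription, was 2.09-fold lower in double-positive cells (−1.07) and 1.94-fold lower in tdTomato-only cells (−0.96). The nuclease gene Mgme1 (−0.45 and −0.81), the polymerase subunit gene Polg2 (−0.42 in double-positive cells) and Tfam, which packs mitochondrial DNA (−0.61 in tdTomato-only cells), came next. The listed transcription regulators of nuclear mitochondrial genes were mixed, with 6 of 12 below 0 in double-positive and 8 of 12 in tdTomato-only cells. Nrf1 stood at −0.55 and −0.41, Gabpa at 0.42 and 0.37, Myc at −0.48 and −1.08, and Esrra at 0.45 and Gabpb1 at −0.43 in tdTomato-only cells.

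Both larger gene families gave a scale for these values. Respiratory chain and ATP synthase subunits encoded in the nucleus had medians of −0.14 and −0.07 over 75 genes, with 52 and 47 below 0. They included Ndufa1 (0.77 and 0.66) above and Atp5o (−0.79 in double-positive cells), Cox6b2 (−0.54 and −0.85) and Atp5g2 (−0.74 in tdTomato-only cells) below. Cytosolic ribosomal proteins had medians of −0.43 and −0.59 over 56 genes, with 12 and 28 at least 1.5-fold lower, and Rps3 (−1.38 and −1.62), Rps9 (−0.96 and −1.34), Rpl41 (−0.92 in double-positive cells) and Rpl5 (−1.21 in tdTomato-only cells) farthest below 0. Between the tdTomato-positive populations, cytosolic ribosomal proteins stood at a median of −0.23, with 49 of 56 below 0. Members had 28 of 73 below 0 and respiratory chain genes 23 of 74, with a median of 0.05, while 54.8% of all 12242 genes lay below 0. By the authors' own ratios 45 of 73 members (61.6%) and 58.7% of all genes lay below 0. The other lists were not counted in those ratios. The differences between these lists were not tested. The largest values of each list in the third comparison, up to 3 a list, were those of Rps18 (−0.70), Rps26 (−0.51) and Rps16 (−0.47), Cars2 (0.52), Lars2 (−0.34) and Fars2 (0.31), Noa1 (−0.42), Mrm2 (−0.35) and Nsun4 (0.29), Mgme1 (−0.36), Polrmt (−0.34) and Polg (−0.31), Myc (−0.61), Yy1 (−0.48) and Gabpb1 (−0.28), Lrpprc (−0.33), Gfm1 (−0.24) and Pnpt1 (−0.22), and Ndufa4l2 (0.38), Ndufs4 (0.34) and Cox6b2 (−0.31).

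**Figure D4:**
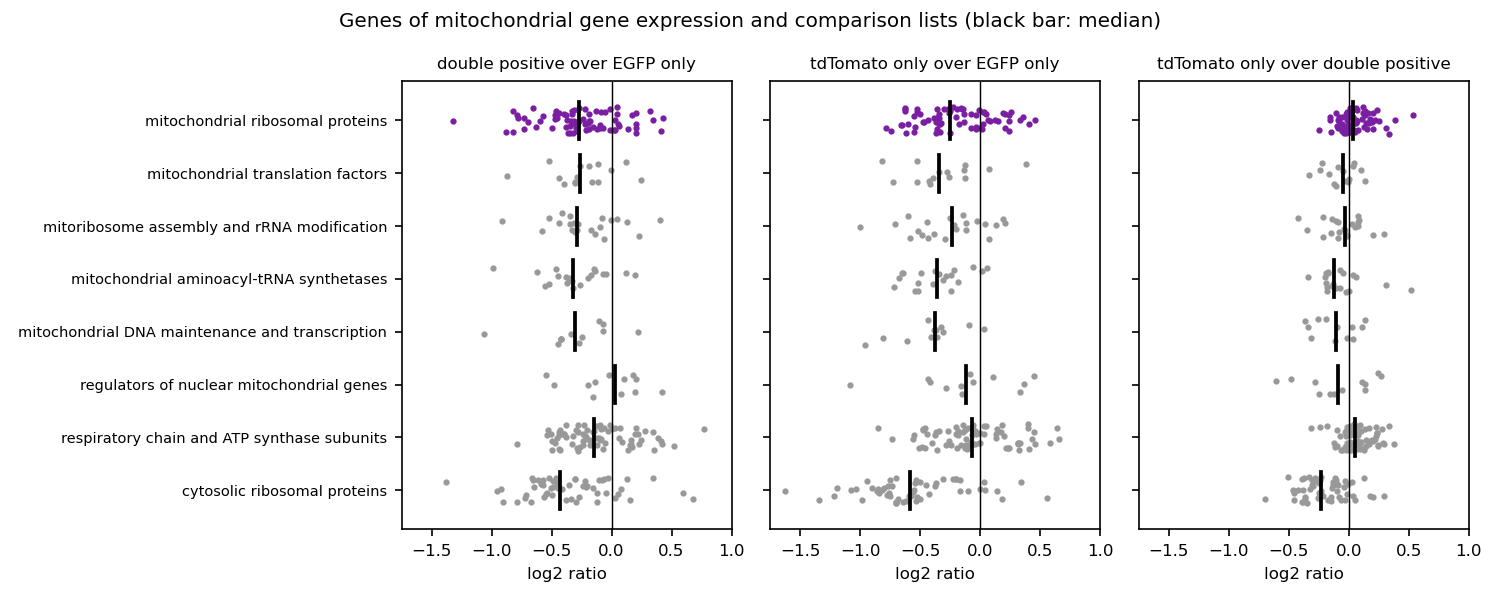
Each point is 1 gene's log2 ratio in the comparison named above the panel, for the mitochondrial ribosomal proteins (purple) and 7 other gene lists (grey), with black bars at the medians and points spread vertically only for legibility. Member medians are −0.27, −0.25 and 0.03, and those of cytosolic ribosomal proteins are −0.43, −0.59 and −0.23.

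How far the members lay below 0 depended on the scaling, although their median stayed below that of all genes in both comparisons with EGFP-only cells under all 11 alternatives. In the authors' deposited ratios the median of members was −0.51 in double-positive and −0.53 in tdTomato-only cells, with 93.2% and 91.8% below 0. Median centring without loess gave −0.64 and −0.61. Neither of these adjusts for brightness, which moved with the ratio as given above. The share at least 1.5-fold lower was then 33.8% in double-positive cells in the deposited ratios, against 15.1% of all genes, and 46.6% against 20.0% in tdTomato-only cells. All 12 and all 9 members called 1.5-fold lower had a ratio below 0 under every alternative. They were picked for low ratios and every alternative uses the same spots, so this sign was nearly fixed in advance and lends no support.

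**Figure D5:**
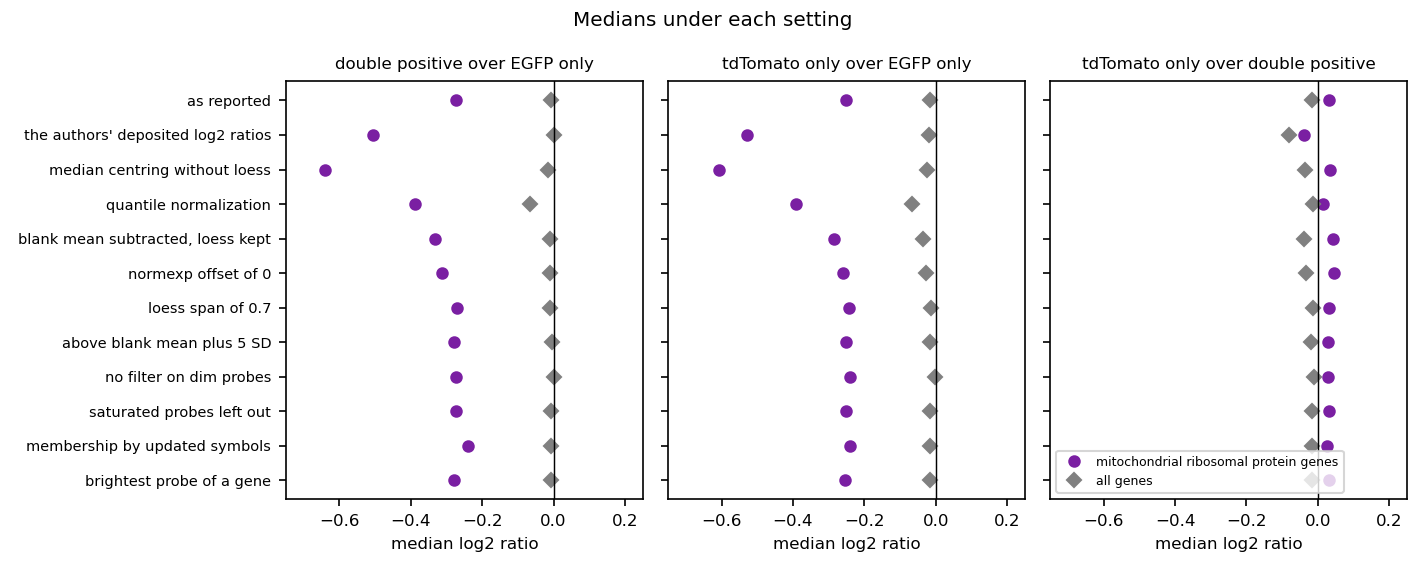
The median log2 ratio of the mitochondrial ribosomal protein genes (purple circles) and of all genes (grey diamonds) is plotted for each processing setting and comparison, with no error bars. Member medians run from −0.64 to −0.24 in double-positive and from −0.61 to −0.24 in tdTomato-only cells, and lie between −0.04 and 0.05 in the third comparison.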

How the data were processed

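Each array's scanner table, as deposited, held the spot median intensity for Cy5 and for Cy3, per the file headers. A log2 ratio per probe was deposited as well, and per the labels it is normalized, with the EGFP-only population as denominator. The sources used here do not give the authors' software. Subtracting the trimmed blank mean, taking the log2 ratio and centring on the median matched those ratios to within 0.02 at 99.99% of measured probes on either array, so scale, centring and direction are known, and each column had a median of 0. The blank mean and SD left out the highest and lowest 5% of blank spots. Intensities were corrected with normexp (offset of 50, no local background) and then by loess with a span of 0.3, in which controls and spots with a poor quality flag had no weight (limma 3.58.1, R 4.3.3). Spot levels across arrays used Aquantile scaling. These steps were tested on simulated data in which a small random set of genes changed by known folds, as many up as down. The folds came back close to those put in, slightly understated, for genes brighter than 500. They were strongly understated for all genes together, most of them dim. Bright genes shifted together only by a simulated dye curve, so the simulation cannot show whether loess keeps a real shift that they share.

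Gene names came from the platform annotation (16632 of 23474 probes, 6842 unnamed) and were updated through RefSeq synonyms. Probes of a gene were averaged. With 1 array per comparison no test was made, and genes were counted past 1.5-fold and 2-fold. The precision is limited by the number of arrays. The members and lists were chosen with earlier results of these data known. The genes named were the 8 highest and 8 lowest members per comparison, members past 2-fold, below background or with several probes, up to 3 genes with the largest log2 ratio of each pathway list, and others where stated. In all, 11 alternatives of background correction, normalization, filter, membership and probe choice were tried.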

Additional observations from a re-analysis of the deposited data

How the results depend on the processing

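The medians and counts of the mitochondrial ribosomal protein genes moved most with the scaling. In double-positive over EGFP-only cells the median log2 ratio of −0.27 and its difference of −0.27 from that of all genes both became −0.51 (−0.505) for the authors' values. Centring on the median gave −0.64 and −0.62, and quantile normalization a median of −0.39. The 12 members at least 1.5-fold lower became 25 and 42 in the first 2 of these settings. Over all genes the count rose too, from 485 to 1872 and 1721. In tdTomato-only over EGFP-only cells the median of −0.25 and the difference of −0.24 became −0.53 and −0.51 for the authors' values, −0.61 and −0.58 when centred on the median, and −0.39 and −0.33 after quantile normalization. The 9 members became 34, 39 and 17, and 14 when blanks were subtracted before loess. Over all genes 759 became 2503, 1945 and 1178, and 2325 when blanks were subtracted. In the last of these settings the shares were 19.2% of members and 18.6% of all genes. The cause was not tested. In tdTomato-only over double-positive cells the median of 0.03 turned to −0.04 in the deposited ratios, where all genes stood at −0.08. The count of members at least 1.5-fold lower went from 0 to 1 with updated symbols, by the entry of Mrpl58. The other alternatives, namely an offset of 0, a loess span of 0.7, a limit of 5 SD, no filter, saturated probes left out and the brightest probe, moved no median by more than the SD of the EGFP-only repeat and no such count by over 1.5 times. No paired analysis was possible because each comparison has 1 array and 1 pooled replicate. Dim probes, such as those of Mrpl33, Mrpl35 and Mrpl41, lie too near the blanks for a reliable ratio.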
